A study of Mus musculus with 8 samples.

Results

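Complex I (NADH:ubiquinone oxidoreductase) is the entry point of the mitochondrial respiratory chain, and the nuclear genes for its subunits and for the factors that build it carry symbols that start with Nduf. All genes with such a symbol were taken from a count table of 53655 gene symbols, which gave 49 genes, including the pseudogenes named below. By symbol, 11 of them belong to the Ndufs and Ndufv genes (called the core class below), 30 to the accessory Ndufa, Ndufb and Ndufc genes, and 8 to the Ndufaf assembly factors. RNA was measured in tuft cells, which are scarce chemosensory cells in the gut lining, sorted from the small intestine of naïve mice. All animals had the genotype Il25-RFP/+;Chat-GFP(Tg+), that is, a red reporter for the cytokine gene Il25 and a green transgenic reporter for Chat, the gene of choline acetyltransferase. Cells that were CD45-, EPCAM+ and Il25-RFP+ were divided by green signal into Chat-GFP- cells (Chat-neg) and Chat-GFP+ cells (Chat-pos), with 4 libraries each. The groups are thus reporter gates within 1 genotype, and the labels give neither the age of the mice nor the animal behind each library. P-values therefore rest on the spread among 8 libraries, part of which may be technical. The comparison asks how complex I transcripts differ between tuft cells without and with an active Chat reporter.

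Complex I takes electrons from NADH and passes them along a chain of iron-sulfur clusters to ubiquinone, and it uses the energy released to pump protons across the inner mitochondrial membrane. It has a peripheral arm, which holds the NADH and ubiquinone sites, and a membrane arm, which pumps protons and includes subunits encoded by mitochondrial DNA. The conserved core subunits carry out the catalysis, accessory subunits surround and stabilise them, and assembly factors join the modules and leave the finished complex. Not all Ndufs and Ndufv genes encode conserved core subunits: Ndufs4, Ndufs5, Ndufs6 and Ndufv3 encode accessory ones. Ndufa4, named as a complex I gene, encodes a protein that was later assigned to complex IV (cytochrome c oxidase).

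Depth was uneven. The Chat-neg libraries held 87642 (replicate 1), 784036, 1176880 and 610756 counts in genes with a name. The Chat-pos libraries held from 1757401 to 2541955. Complex I genes took between 1.38% and 2.22% of these counts in Chat-neg and between 1.37% and 1.67% in Chat-pos. In Chat-neg replicate 1 the tested complex I genes rested on 1 to 107 counts each, with a median of 17, and 15 of them had fewer than 10. All 15 tuft cell markers checked had counts in all 8 libraries, but at unequal levels (given with the other cell type markers after the complex I results). Chat had 9 to 174 raw counts in the Chat-neg libraries and 506 to 858 in the deeper Chat-pos libraries. These counts are not scaled for depth, so they overstate the gap in Chat level between the gates. Chat transcript was thus present in every Chat-neg library. Chat-pos replicates 2 and 3 stood apart. Paneth cell markers took 5.76% and 3.22% of their counts, against 0.0464% to 0.358% in the other libraries, so results are also given without them.

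Of the 49 genes, 45 had enough counts to be tested, on 17 chromosomes. The other 4 were Ndufa4l2 with 6 counts over all libraries, Ndufb4c with 4, and Ndufa11b and Ndufab1-ps with 1 each. Ndufb4c, Ndufa11b and Ndufab1-ps are annotated as processed pseudogenes. Levels below are counts per 1000000 (CPM) of scaled gene totals, always listed in the order of replicates 1 to 4, and differences are log2 differences, Chat-pos minus Chat-neg, from edgeR's quasi-likelihood test. A gene was called at a Benjamini-Hochberg adjusted p under 0.05 over all 8919 genes tested.

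Complex I transcripts were lower in Chat-pos or not called, and none was called higher. Of the 45 tested genes, 9 fell: Ndufa4, Ndufc1, Ndufaf4, Ndufa5, Ndufb4, Ndufb5, Ndufab1, Ndufc2 and Ndufb2. That is 20% of them, against 2.87% of all tested genes called lower (256 of 8919) and 6.49% called in either direction. The count of genes called higher was 0 by edgeR's quasi-likelihood test, against 3.62% of all tested genes. At an unadjusted p under 0.05, 15 complex I genes were lower and 2 higher. DESeq2 called 5 lower and 1 higher, against 1.65% and 2.59% of all genes it tested. With limma-voom and quality weights 9 were lower and 0 higher, against 3.98% and 3.52%. The log2 difference was below 0 for 38 of the 45, with a median of -0.32, against -0.02 over all tested genes. In 6 of the 45 all Chat-pos libraries lay below all Chat-neg libraries (5.42% of all tested genes did so), and in 2, Ndufa1 and Ndufaf3, all lay above (8.58%). Fewer cells with a transcript and less transcript per cell cannot be told apart in such bulk libraries.

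The promoters of the 4 genes with the largest called differences are shown because they fell together and because motifs known from genes of the respiratory chain were searched in them. The sequences are from RefSeq (GRCm38.p6), 250 bases before to 50 bases after a RefSeq start of the gene, 5′ to 3′ on the gene's strand, with the motif in capitals. Ndufa4 lies on the minus strand and its promoter at chr6:11907401-11907700, Ndufc1 on the minus strand at chr3:51408906-51409205, Ndufa5 on the minus strand at chr6:24527477-24527776 and Ndufaf4 on the plus strand at chr4:24897833-24898132.
Ndufa4: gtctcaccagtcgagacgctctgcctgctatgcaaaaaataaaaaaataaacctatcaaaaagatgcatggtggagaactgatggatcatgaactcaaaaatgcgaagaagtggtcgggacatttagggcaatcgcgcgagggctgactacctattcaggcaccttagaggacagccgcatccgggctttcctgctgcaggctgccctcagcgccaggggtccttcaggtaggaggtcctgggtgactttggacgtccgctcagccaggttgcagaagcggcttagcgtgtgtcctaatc
Ndufc1: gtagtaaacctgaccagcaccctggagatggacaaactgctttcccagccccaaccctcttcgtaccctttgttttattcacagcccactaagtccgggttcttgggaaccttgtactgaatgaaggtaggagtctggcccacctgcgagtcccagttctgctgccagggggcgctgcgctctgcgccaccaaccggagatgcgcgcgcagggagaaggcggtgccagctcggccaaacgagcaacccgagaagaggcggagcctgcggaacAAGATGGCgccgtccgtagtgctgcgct
Ndufa5: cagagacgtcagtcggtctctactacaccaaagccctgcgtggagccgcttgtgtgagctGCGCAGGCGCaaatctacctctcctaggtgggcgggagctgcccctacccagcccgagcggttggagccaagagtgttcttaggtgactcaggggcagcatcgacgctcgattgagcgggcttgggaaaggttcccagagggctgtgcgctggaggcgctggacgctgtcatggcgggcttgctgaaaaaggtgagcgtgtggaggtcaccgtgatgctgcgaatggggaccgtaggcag
Ndufaf4: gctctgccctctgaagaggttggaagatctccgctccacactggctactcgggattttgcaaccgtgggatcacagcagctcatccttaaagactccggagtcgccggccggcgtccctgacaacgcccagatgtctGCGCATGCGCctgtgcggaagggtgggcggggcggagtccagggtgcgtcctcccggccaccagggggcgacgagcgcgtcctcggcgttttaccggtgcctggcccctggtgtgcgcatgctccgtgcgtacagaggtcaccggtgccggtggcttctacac
The capitals mark AAGATGGC, a motif of the factor YY1, in Ndufc1, where it begins 22 bases past the start. In Ndufa5 and Ndufaf4 they mark a motif of the factor NRF-1 (GCGCA, any base, then GCGC). It begins 190 bases before the start used for Ndufa5 and 113 bases before that of Ndufaf4. The table gives 2 starts for Ndufa5, of which 1 is shown. GENCODE places Ndufa5 at chr6:24518666-24528013 on the minus strand. By that position its whole window, with the motif, lies inside the gene. The Ndufa4 window held none of the 3 motifs. Both strands were searched, and 40 of the 45 tested genes had an entry in the table.

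Among these 40 promoters, 9 (22.5%) held the NRF-1 motif, against 4.78% of all 27025 promoters of the same length in the table. The YY1 motif was in 8 (20%) against 2.88%. The ETS motif CCGGAAG was in 6 (15.0%) against 9.12%. Of the 9 genes that fell, 3 held the NRF-1 motif (Ndufa5, Ndufaf4 and Ndufb4), 1 held the YY1 motif (Ndufc1) and 0 held the ETS motif. A match is a description of the letters and was not tested as a binding site.

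**Figure D1:**
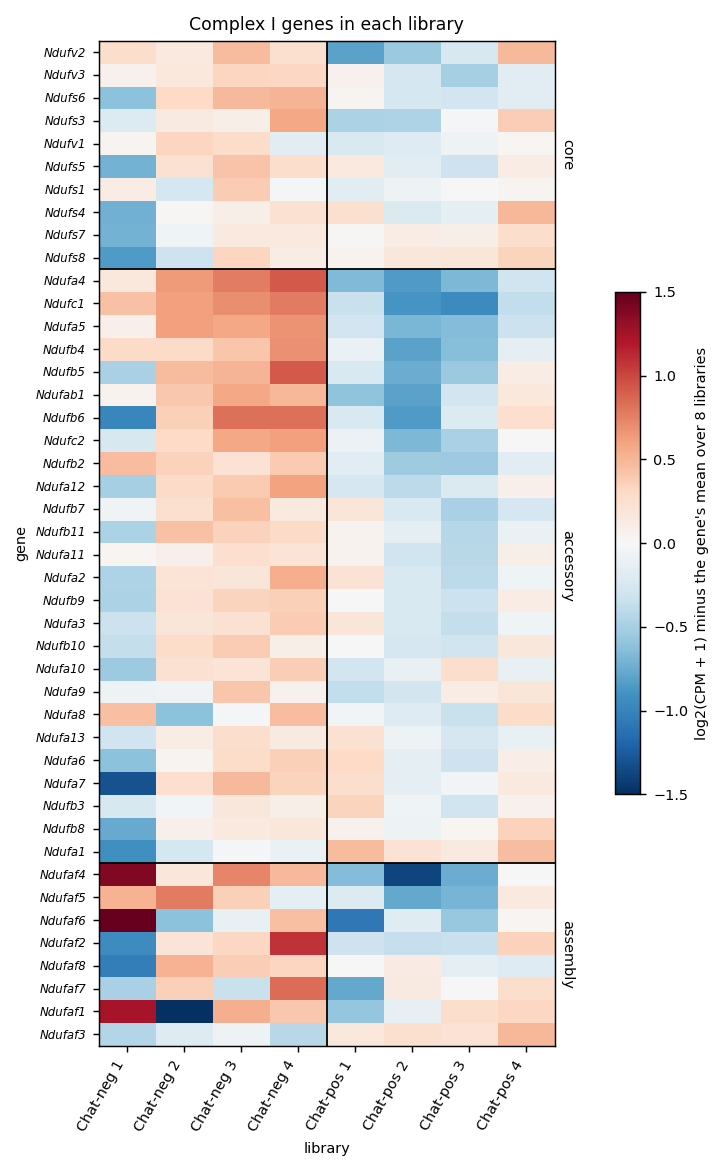
Level of 44 of the 45 tested complex I genes (rows, by class) in each of the 8 libraries (columns). Colour is log2(CPM + 1) minus the gene's mean over the libraries, red above and blue below it. Chat-pos replicates 2 and 3 are both below the other 2 Chat-pos libraries in 26 of the 44 rows, while Ndufa1 and Ndufaf3 are redder in all 4 Chat-pos libraries.

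The summed level of all complex I genes was 14089, 19239, 21470 and 21749 CPM over the Chat-neg libraries, in the order of their replicate numbers. It was 18177, 14903, 14220 and 17851 CPM over the Chat-pos libraries. The groups overlapped only through Chat-neg replicate 1, the shallowest library, which had the lowest sum of all. The accessory sum was 3.25 to 3.47 times the core sum in Chat-neg and 3.11 to 3.58 times in Chat-pos. These ranges overlapped. By class, 8 of 26 tested accessory genes (30.8%), 1 of 8 assembly factors (12.5%) and 0 of 11 core-class genes were called lower. Of all tested genes 2.87% were. The median log2 differences of these classes were -0.28, -0.47 and -0.27. Whether the classes differ from each other was not tested.

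None of the 11 core-class genes was called by edgeR's quasi-likelihood test, and 3 were lower at an unadjusted p under 0.05. DESeq2 and limma-voom also called 0. Their median log2 difference was -0.27, 8 of the 11 were below 0, and the groups overlapped in all 11. The 7 conserved core subunits alone had the same median of -0.27. Their summed level was 1233 to 1857 CPM in Chat-neg and 1345 to 1848 CPM in Chat-pos.

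Ndufv3, an accessory subunit at the NADH-oxidising tip and the most abundant of the core class by CPM, was at 1245, 1326, 1492 and 1473 CPM in Chat-neg. In Chat-pos it was at 1250, 1002, 841 and 1060 CPM. Only Chat-pos replicate 1 reached the Chat-neg range, and the log2 difference of -0.42 ± 0.20 (SE) was not called by edgeR's quasi-likelihood test (Benjamini-Hochberg adjusted p = 0.238). Ndufs6, a zinc-binding accessory subunit that is added late in assembly, was at 419, 789, 895 and 911 CPM in Chat-neg and at 660, 535, 525 and 571 CPM in Chat-pos. Its Chat-neg replicate 1 lay below all Chat-pos libraries and the other Chat-neg libraries above them. The log2 difference was -0.42 ± 0.22, adjusted p = 0.287 by edgeR's quasi-likelihood test. Ndufs6 was called lower when Chat-neg replicate 1 was left out, both at full and at equal depth.

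Ndufv2, an iron-sulfur subunit next to the NADH site, was at 372, 345, 434 and 367 CPM in Chat-neg and at 177, 211, 263 and 435 CPM in Chat-pos. Chat-pos replicate 4 was as high as the highest Chat-neg library, and the other Chat-pos libraries lay below all of Chat-neg. The log2 difference was -0.49 ± 0.24 (adjusted p = 0.234 by edgeR's quasi-likelihood test), and Ndufv2 was called lower only when Chat-pos replicate 4 was left out. Ndufs7 and Ndufs8, iron-sulfur subunits that carry electrons to ubiquinone, had differences of 0.17 ± 0.21 and 0.26 ± 0.22. Their 95% intervals ran from -0.24 to 0.59 and from -0.18 to 0.70, so equal levels and moderate shifts in either direction are all compatible with the data.

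Of the 30 accessory genes 26 were tested, and 8 fell (30.8%, against 2.87% of all tested genes). Their median log2 difference was -0.28. The 8 genes lie in different places of the complex. By textbook placement, 3 of the 10 tested distal membrane arm genes fell (Ndufb2, Ndufb4 and Ndufb5), 2 of 9 in the proximal membrane arm (Ndufc1 and Ndufc2), 1 of 6 in the ubiquinone-reducing arm (Ndufa5) and 0 of 9 in the NADH-oxidising arm. In that last arm 3 genes were lower at an unadjusted p under 0.05 and DESeq2 also called 0, as did limma-voom. With 2.87% of all tested genes called lower, 0 of 9 is near that share. Differences between the arms were not tested. The remaining called accessory genes, Ndufa4 and Ndufab1, were not assigned to an arm.

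Ndufa4 lies at chr6:11900292-11907497 (minus strand, GRCm38). It was at 768, 1068, 1175 and 1303 CPM in Chat-neg and at 435, 381, 430 and 560.5 CPM in Chat-pos. Every Chat-pos library was below every Chat-neg library. Ndufa4 fell by 1.27 ± 0.21 on the log2 scale, a 2.40-fold lower level (edgeR's quasi-likelihood test, adjusted p = 0.000451). It was the only complex I gene called under all 20 alternative settings. Since its protein belongs to complex IV, the list was also read without it. Then 8 of 44 genes fell (18.2%, against 2.87% of all tested genes), with a median of -0.30.

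Ndufc1, a small subunit of the membrane arm, lies at chr3:51404677-51408988 (minus strand). It was at 628, 707, 752 and 794 CPM in Chat-neg and at 365, 250, 238 and 357 CPM in Chat-pos. The groups were well apart, with Chat-pos replicates 2 and 3 the lowest. Ndufc1 fell by 1.26 ± 0.21 on the log2 scale, or 2.39-fold (edgeR's quasi-likelihood test, adjusted p = 0.000403). Ndufc2, its neighbour in the complex, lies on another chromosome, at chr7:97400003-97407802 (plus strand). It was at 151, 220, 268 and 274 CPM in Chat-neg and at 168, 112, 127 and 179 CPM in Chat-pos. The groups overlapped through Chat-neg replicate 1 alone, and the difference of -0.70 ± 0.21 had an adjusted p of 0.0449 by edgeR's quasi-likelihood test. Ndufc2 was called under 9 of the 20 alternative settings.

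Ndufa5, an accessory subunit of the ubiquinone-reducing arm, lies at chr6:24518666-24528013 (minus strand). It was at 430, 629, 613 and 653 CPM in Chat-neg and at 335, 254, 260 and 326 CPM in Chat-pos. The groups did not overlap. Ndufa5 fell by 1.00 ± 0.21 on the log2 scale (adjusted p = 0.00313, edgeR's quasi-likelihood test). Ndufab1, the mitochondrial acyl carrier protein, which also serves fatty acid synthesis in the organelle, was at 93.1, 118, 134 and 127 CPM in Chat-neg. In Chat-pos it was at 58.5, 51.1, 73.2 and 100.1 CPM, and only replicate 4 reached into the Chat-neg range. Its difference was -0.79 ± 0.23 (adjusted p = 0.0324, edgeR's quasi-likelihood test), and it was called under 9 of the 20 alternative settings. Ndufab1 (chr7:122085403-122101886, minus strand) shares exon sequence with Gm44986 on the other strand and has a pseudogene copy, so its reads are uncertain.

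The 3 called Ndufb genes encode subunits of the distal membrane arm. Ndufb4 (chr16:37647170-37654453, minus strand) was at 128, 129, 141 and 170 CPM in Chat-neg and at 98.3, 60.03, 67.1 and 94.7 CPM in Chat-pos, with no overlap. It fell by 0.85 ± 0.21 (adjusted p = 0.0138, edgeR's quasi-likelihood test). Ndufb2 (chr6:39592574-39603382, plus strand) was at 221, 204, 187 and 212 CPM in Chat-neg and at 143, 111, 110 and 142 CPM in Chat-pos, also with no overlap. It fell by 0.69 ± 0.20 (adjusted p = 0.0293, edgeR's quasi-likelihood test). Ndufb5 (chr3:32736990-32751566, plus strand) was at 151, 296, 304 and 404 CPM in Chat-neg and at 182, 127, 145 and 230 CPM in Chat-pos. Here Chat-neg replicate 1 lay within the Chat-pos range, and the difference was -0.81 ± 0.24 (adjusted p = 0.0344, edgeR's quasi-likelihood test). Ndufb2, Ndufb4 and Ndufb5 were called under 12, 11 and 9 of the 20 alternative settings. Library chemistry of this kind does not mark strand, so reads of Ndufb5 and Mrpl47, and of Ndufb2 and Braf, Gm16272 and Gm42420, cannot be told apart where their exons overlap. Ndufb6, of the same arm, had a difference of -0.75 ± 0.27 that was not called (adjusted p = 0.1000, edgeR's quasi-likelihood test). It was called when Chat-neg replicate 1 or Chat-pos replicate 4 was left out.

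**Figure D2:**
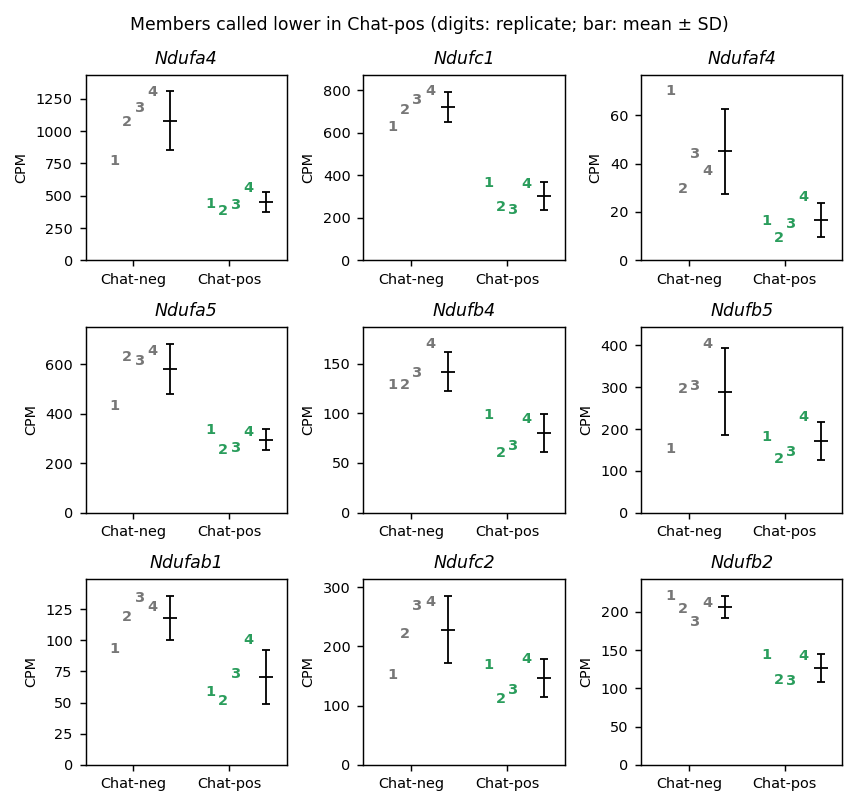
CPM of the 9 genes called lower, 1 panel per gene, with each library drawn as its replicate number (grey for Chat-neg, green for Chat-pos) and the mean ± SD of 4 libraries as a black bar. Ndufa4, Ndufc1, Ndufaf4, Ndufa5, Ndufb4 and Ndufb2 have no overlap between groups, while in Ndufb5, Ndufab1 and Ndufc2 Chat-neg replicate 1 lies within the Chat-pos range.

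The 2 most abundant accessory genes by CPM, Ndufa13 and Ndufa1, were not called. Ndufa13 (also known as GRIM-19), which links the arms, was at 1094, 1450, 1617 and 1483 CPM in Chat-neg and at 1571, 1279, 1126 and 1245 CPM in Chat-pos. The ranges lay over each other, with a difference of -0.12 ± 0.21 whose sign depended on the scaling (0.12 with TMM scaling before the filter). Ndufa1, a small X-linked membrane arm subunit at chrX:37187588-37191163 (minus strand), had the highest mean CPM over all libraries, though in Chat-neg its mean of 1172 CPM was below that of Ndufa13, 1411 CPM. It was at 756, 1192, 1409 and 1329 CPM in Chat-neg and at 1984, 1663, 1572 and 1973 CPM in Chat-pos. Every Chat-pos library was above every Chat-neg library, yet the difference of 0.61 ± 0.22 was not called (adjusted p = 0.0899, edgeR's quasi-likelihood test). It was called higher by DESeq2 and at equal depth without Chat-neg replicate 1.

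**Figure D3:**
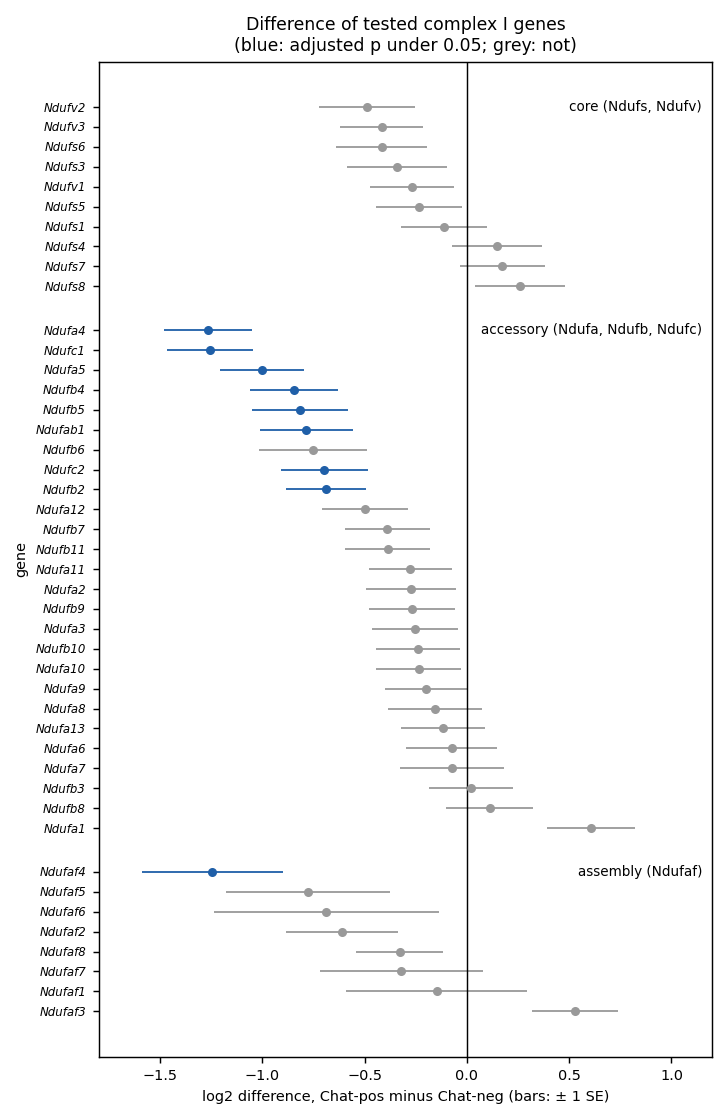
Log2 difference, Chat-pos minus Chat-neg, of 44 of the 45 tested complex I genes, grouped by class, with bars of ± 1 SE. Blue points have an adjusted p under 0.05. The 9 blue points lie between -1.27 and -0.69, and the core class has none.

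Ratios within a library do not depend on the scaling between libraries. Relative to the summed core class, Ndufa4 stood at 23.7% to 27.1% in Chat-neg and at 10.9% to 13.3% in Chat-pos. Ndufc1 stood at 15.4% to 19.4% and at 7.03% to 9.37%, and Ndufa5 at 12.6% to 14.9% and at 7.27% to 8.599%. The groups did not overlap for these 3 genes. They had the smallest adjusted p-values of the complex I genes by edgeR's quasi-likelihood test, and their CPM already separated the groups. Their separation in this ratio is therefore a description only. Of the 9 called genes, only Ndufb5 overlapped in it. Ndufa13 stood at 30.9% to 34.4% in Chat-neg and at 29.6% to 40.3% in Chat-pos, which overlapped. Ndufa4 was also set against Ndufa1, which was picked for this after its values were seen. The ratio of Ndufa4 to Ndufa1 was 0.83 to 1.02 in Chat-neg and 0.22 to 0.28 in Chat-pos. Both genes were chosen for their opposite differences, so the gap in this ratio is a description only.

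**Figure D4:**
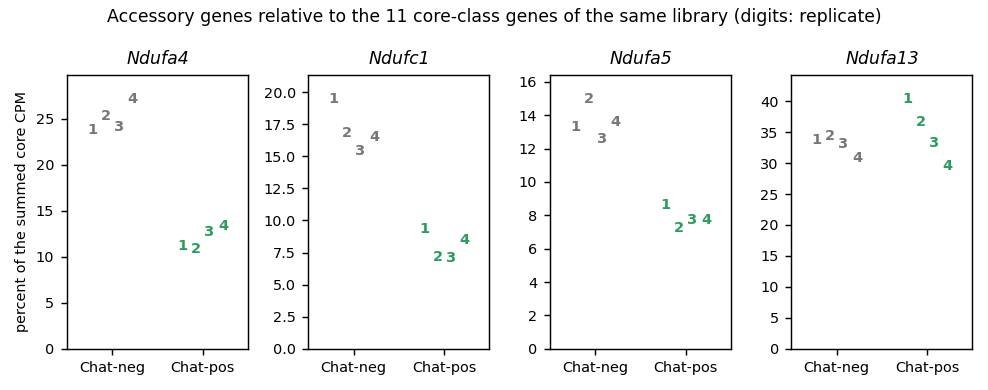
CPM of 4 accessory genes as a percent of the summed CPM of the 11 core-class genes in the same library (axis from 0, digits are replicate numbers). Ndufa4, Ndufc1 and Ndufa5 separate the groups without overlap, and Ndufa13 does not.

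Assembly factors were the scarcest class. Their median level was 15.1 CPM per kb of transcript, against 232 CPM per kb for the core class and 560 CPM per kb for the accessory class. Of the 8, 1 fell (12.5%, against 2.87% of all tested genes), and the median log2 difference was -0.47. Ndufaf4, which acts with Ndufaf3 early in building the ubiquinone-reducing arm, lies at chr4:24898083-24905001 (plus strand) and had the lowest level per kb of all tested complex I genes (8.49 CPM per kb). It was at 69.8, 29.3, 44.0 and 36.9 CPM in Chat-neg and at 16.2, 9.41, 15.1 and 26.1 CPM in Chat-pos. The groups did not overlap, though Chat-neg replicate 1 rested on 6 counts. The fall of 1.24 ± 0.34 on the log2 scale had an adjusted p of 0.0248 (edgeR's quasi-likelihood test). Ndufaf4 was called under 11 of the 20 alternative settings. Those that lost it include DESeq2 and equal depth without Chat-neg replicate 1, where the difference was -0.78.

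Its partner Ndufaf3 (chr9:108565537-108567434, minus strand) was at 69.8, 82.8, 89.8 and 70.6 CPM in Chat-neg and at 106, 112, 110.1 and 135 CPM in Chat-pos. All Chat-pos libraries were above all Chat-neg libraries, but the difference of 0.53 ± 0.21 was not called (adjusted p = 0.131, edgeR's quasi-likelihood test), and its exons overlap Impdh2. Ndufaf8, which works with Ndufaf5, was at 58.2, 173, 155 and 151 CPM in Chat-neg and at 121, 130.4, 110 and 105 CPM in Chat-pos. Its groups overlapped through Chat-neg replicate 1. Ndufaf2, a relative of the subunit Ndufa12, had a difference of -0.61 ± 0.27 (adjusted p = 0.196, edgeR's quasi-likelihood test).

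Levels between genes can be compared only per length. On that scale Ndufa1 was highest with a mean of 3544 CPM per kb over all libraries, and it was also highest in each group, with 2796 in Chat-neg and 4291 in Chat-pos. The order below it differed between the groups. In Chat-neg it was followed by Ndufc1 with 2287, Ndufa3 with 2081 and Ndufa6 with 1955 CPM per kb. In Chat-pos it was followed by Ndufa6 with 1872 and Ndufa3 with 1757, while Ndufc1 stood at 961 CPM per kb.

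Of the 7 complex I subunits encoded by mitochondrial DNA, 6 were tested. None was called by edgeR's quasi-likelihood test, while at an unadjusted p under 0.05 2 were higher and 0 lower. DESeq2 called 2 higher and limma-voom 1. Their median log2 difference was 0.19, and their summed level was 19683 to 27887 CPM in Chat-neg and 24882 to 34120 CPM in Chat-pos. These sums overlapped only through Chat-neg replicate 1, the shallowest library, at 27887 CPM. ND5 was at 7376 CPM in that library and at 2076 to 2989 CPM in the other Chat-neg libraries. ND4, a proton-pumping subunit, was at 4479, 5923, 5512 and 5540 CPM in Chat-neg and at 6903, 9389, 8336 and 7435 CPM in Chat-pos. The groups did not overlap, and the difference was 0.58 ± 0.20 (adjusted p = 0.0829, edgeR's quasi-likelihood test). ND1, at the ubiquinone site, had a difference of 0.42 ± 0.20 (adjusted p = 0.224, edgeR's quasi-likelihood test). Its groups did not overlap either, with 7605 to 8533 CPM in Chat-neg and 8805 to 13502 CPM in Chat-pos. Of all tested genes, 8.58% had all Chat-pos libraries above all Chat-neg libraries. ND2 was at 0.16 ± 0.21, ND3 at 0.21 ± 0.45, ND5 at 0.06 ± 0.34 and ND6 at -0.19 ± 0.21, and ND4L had too few counts to test. Whether these subunits differ from the nuclear ones was not tested.

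The nuclear genes of the other respiratory complexes were read from the same fit. In complexes II to V 12 of 66 tested genes (18.2%) fell and 0 were called higher, with a median of -0.32, the same as for complex I. Of all tested genes 2.87% were called lower and 3.62% higher. At an unadjusted p under 0.05, 26 of the 66 were lower and 1 was higher. DESeq2 called 10 lower and limma-voom 20, against 1.65% and 3.98% of all genes they tested. Both called 0 higher, against 2.59% and 3.52%. Complex V (ATP synthase) had 7 of 19 lower with a median of -0.56, among them Atp5k, a subunit of the membrane part, with -1.31 ± 0.23, and Atpif1, an inhibitor of the enzyme, with -0.97 ± 0.21. Complex IV had 4 of 26 lower, including Cox7c at -0.91 ± 0.20 and Cox7a2l at -0.94 ± 0.22, the latter known for its part in joining complexes III and IV. Complex III had 1 of 14 lower, Cyc1 (cytochrome c1), at -0.72 ± 0.21. Complex II had 0 of 7 called in either direction, with 0 at an unadjusted p under 0.05 and 0 by DESeq2 or limma-voom, and a median of 0.01. The 8 tested complex I assembly factors with other names had 0 called in either direction. Of these, 1 was lower at an unadjusted p under 0.05 (Ecsit, -0.93 ± 0.42), and DESeq2 and limma-voom called 0. No difference between complex I and these lists was tested.

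Several measures of the libraries separated the groups with no overlap, as depth did. Mitochondrially encoded mRNA took 4.33% to 5.22% of named-gene counts in Chat-neg and 5.85% to 8.86% in Chat-pos, and ribosomal protein genes took 1.88% to 3.87% and 1.36% to 1.53%. Rows without a gene name held 67.8% to 88.4% of all counts in Chat-neg and 58.6% to 64.6% in Chat-pos. Olfactory and vomeronasal receptor genes, taken as a measure of background, were at 420 to 4621 CPM and at 162 to 308 CPM. The 15 tuft cell markers summed to 11425 to 19954 CPM in Chat-neg and to 26265 to 27932 CPM in Chat-pos. Of these markers 7 were called higher, against 3.62% of all tested genes, and their median log2 difference was 0.52 over all 15.

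Markers of other cell types also differed in level, and no listed marker was at 0 in all 8 libraries. The 8 goblet cell markers, all with counts in every library, summed to 524 to 5560 CPM in Chat-neg and 310.1 to 1835 CPM in Chat-pos. Of these, 1 of 8 was called lower, against 2.87% of all tested genes, and their median was -1.91. Of 9 lymphocyte markers 4 had counts in every Chat-neg library and 1 in every Chat-pos library. Their sum was 175 to 357 CPM in Chat-neg and 6.22 to 289 CPM in Chat-pos, with a median of -1.93 over 5 tested. By edgeR's quasi-likelihood test 0 were called, and 1 was lower at an unadjusted p under 0.05. DESeq2 called 0 lower and limma-voom 3, against 1.65% and 3.98% of all genes they tested. The 10 enterocyte markers summed to 21663 to 45950 CPM in Chat-neg and 33627 to 55175 CPM in Chat-pos, which overlapped. Enteroendocrine markers (582 to 1406 and 1216 to 1925 CPM) and markers of proliferating and stem cells (113 to 1088 and 121 to 1099 CPM) overlapped too. Most of the enteroendocrine sum was Sct, with 570 to 969 CPM in Chat-neg and 1206 to 1890 CPM in Chat-pos. Sct, the only 1 of these 8 tested, was called higher (0.85 ± 0.22, adjusted p = 0.0155, edgeR's quasi-likelihood test), as were 3.62% of all tested genes. Chgb was at 345 CPM in Chat-neg replicate 4, which had the highest Chat-neg sum. The part of these measures in the complex I values was not tested.

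Both Paneth-rich libraries, Chat-pos replicates 2 and 3, lay below both other Chat-pos libraries for 26 of the 45 complex I genes (57.8%), against 16.7% of all tested genes, and above both for 0, against 17.3%. Both Paneth-rich libraries were the lower ones for 19 of 26 accessory genes, 4 of 11 core-class genes and 8 of the 9 genes that fell. Those 9 were called from a fit that includes these libraries, so that last count is a description only. The share among all genes called lower was not taken. Without these 2 libraries only Ndufa4 was called (-1.02, adjusted p = 0.0383, edgeR's quasi-likelihood test), against 0.952% of all tested genes called lower. Ndufc1 was then at -0.90 with adjusted p = 0.0568 and Ndufa5 at -0.73 with adjusted p = 0.141 in the same test. The median of the complex I genes was -0.13, against 0.05 over all genes. Of the 11 Paneth markers 9 had counts in every Chat-neg library, and their sum was 792 to 3571 CPM in Chat-neg and 497 to 61608 CPM in Chat-pos. The part of Paneth cell RNA in the complex I values was not tested.

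Leaving out 1 library left between 3 and 12 complex I genes called lower, and the share of all tested genes called lower moved as well. From Chat-pos, dropping replicate 2 gave 3 genes (2.09% of all tested genes) and dropping replicate 3 also gave 3 (1.6%), while dropping replicate 1 gave 7 (2.63%) and replicate 4 gave 11 (2.45%). From Chat-neg, dropping replicate 3 gave 3 (1.66%) and dropping replicate 4 gave 3 (1.27%). Dropping Chat-neg replicate 2 gave 4 (1.12%), and dropping replicate 1 gave 12 (3.18%). Ndufa4, Ndufc1 and Ndufa5 were called in all 8 of these fits, and Ndufaf4 in 4. With 7 libraries thinned to 610756 counts and Chat-neg replicate 1 left out, 9 complex I genes were lower (4.01% of all tested genes) and 1, Ndufa1, was higher (4.46%). With TMM scaling computed before the filter on low counts, 2 complex I genes, Ndufa4 and Ndufc1, were called lower, against 0.962% of all tested genes. That scaling moved the median of all genes to 0.18 and the split of all calls to 461 higher and 86 lower, from 323 and 256. Total count scaling moved that median to -0.14 and the split to 225 and 380. Relative to the median of all genes, the complex I median was between -0.31 and -0.29 under each of the scalings by TMM before or after the filter, RLE, upper quartile and total counts.

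Transcript length moved with the result as well. Among all tested genes with a transcript of up to 600 bases, 17.1% were called lower, and among those above 600 and up to 1000 bases 10.1%. Complex I genes are mostly short, and 2 of 10 and 4 of 16 of them fell in these classes. In the class above 1000 and up to 2000 bases 1 of 15 fell, against 2.46% of all genes, and above 2000 bases 2 of 4 fell, against 1.83%. From the shortest to the longest class, the median log2 differences of the complex I genes were -0.26, -0.36, -0.34 and -0.51, and those of all genes were -0.37, -0.05, 0.10 and -0.04. The complex I median was thus closer to 0 than that of all genes in the shortest class and further below 0 in the other 3. The part of transcript length in the complex I values was not tested.

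**Figure D5:**
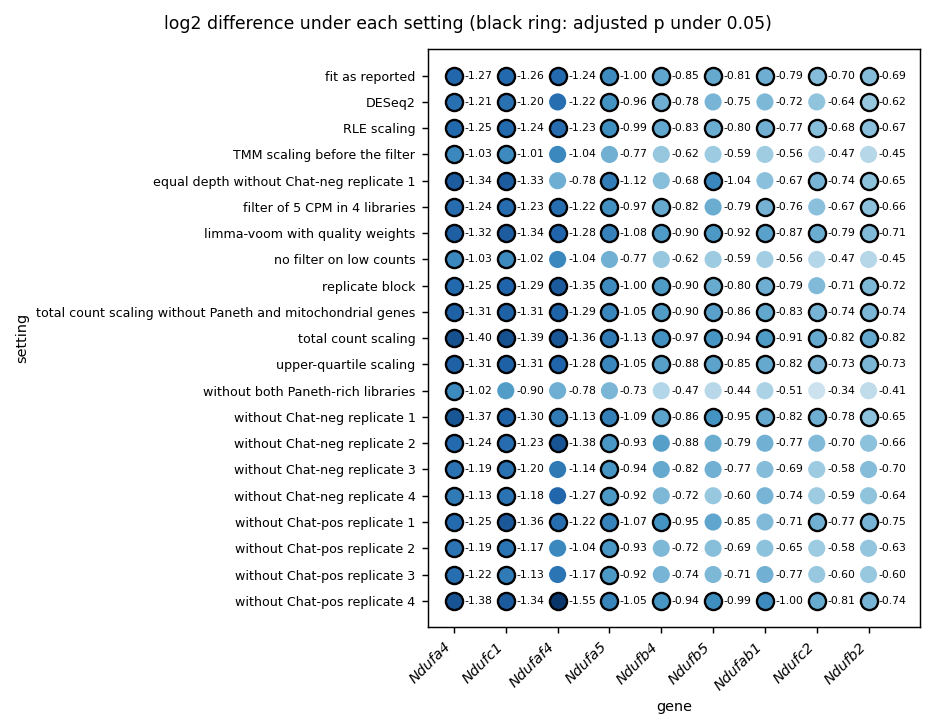
Log2 difference (printed and as colour, darker blue for a larger fall) of the 9 called genes (columns) in the fit as reported and under each of 20 alternative settings (rows). A black ring marks an adjusted p under 0.05. Ndufa4 keeps its ring in every row and Ndufc1 in all but 1, while the genes on the right lose theirs in most rows that leave out a library.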

How the data were processed

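Sorted cells were lysed into SMARTer v4 reagents, and Nextera XT libraries of the amplified cDNA were sequenced as single reads, per the labels' protocols. The values are raw counts per gene as deposited by the authors, and the submitters' processing notes name GRCm38. For the aligner and the counting tool, names were not given in the sources used here. The table had 53806 rows. The 36 rows without a name held 58.6% to 88.4% of counts per library and were left out. Counts of 229 rows sharing 114 symbols were summed.

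The test was that of edgeR 4.0.16 under R 4.3.3 (filterByExpr, TMM scaling on the genes kept, robust quasi-likelihood fit, group as the only term, Benjamini-Hochberg adjustment over 8919 genes, threshold 0.05). SEs were taken from the log2 difference and its F statistic. The common biological coefficient of variation was 28.1%. Replicates of a group all differed from each other beyond counting noise. On simulated counts for these 8919 genes, 38.7% of 2-fold and 89.6% of 4-fold changes were recovered, with 4 false calls among 126. Positions and lengths are from GENCODE M21 (GRCm38), which held 52847 of the symbols. The promoter table held 40 of the 49 genes.

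Alternatives were other scalings, other filters, DESeq2 1.42.0, limma-voom with quality weights (limma 3.58.1), the replicate number as a block, leaving out libraries, and equal depth. The scaling before the filter was added after seeing the data. The genes, lists and classes were chosen with earlier results of these data known. The genes named were all those called, in each class the 3 with the smallest p and the 2 with the highest CPM, the mitochondrially encoded subunits and 2 genes of each other list. Ndufb6, Ndufs7 and Ndufs8 were picked after their values were seen, as were the abundant genes named per kb. Of the genes this rule takes, 1 is counted but not reported here by name. Counts carry no molecular identifiers.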

Additional observations from a re-analysis of the deposited data

Results flagged for a closer look

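Groups of 4 libraries were checked for a library far from the other 3, in 54 groups, of which 2 stood out, and chance gives about 1 in 20. The assembly factor gene Ndufaf2 was at 58.07 CPM in Chat-pos replicate 4, against 35.84 to 36.7 CPM in the other Chat-pos libraries. The ratio of the accessory to the core sum was 3.58 in Chat-pos replicate 1, against 3.112 to 3.165 in the other Chat-pos libraries.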

How the results depend on the processing

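Of the values for named genes under alternatives, 562 kept their direction and side of the threshold, 87 lost the call, 19 gained one and 12 changed sign. The 9 complex I genes called lower became 5 with DESeq2, 2 with TMM scaling before the filter, 2 without a filter and 1 without both Paneth-rich libraries, and the 8 accessory genes among them 5, 2, 2 and 1. The 1 assembly factor became 0 under these 4 settings and at equal depth without Chat-neg replicate 1. DESeq2 and equal depth each called 1 accessory gene higher (1 of all complex I genes), and equal depth called 1 core-class gene lower. The median became -0.047 without a filter, where the median of all genes was -0.34. Leaving out 1 library gave 3 to 12 complex I genes, 3 to 10 accessory genes, 0 to 1 core-class genes and 0 to 1 assembly factors called lower. Sign changes were in values near 0. Ndufa13 was at 0.12 with TMM scaling before the filter, 0.11 without a filter and 0.10 without the Paneth-rich libraries. ND6 was at 0.10 with TMM scaling before the filter, 0.10 without a filter and 0.019 at equal depth. ND5 was at -0.10 with total count and -0.045 with upper-quartile scaling and -0.016 without the Paneth-rich libraries. With 1 library left out it ran from -0.093 (Chat-neg replicate 4) to 0.61 (Chat-neg replicate 1), and was -0.012 after dropping Chat-neg replicate 3 and -0.0035 after dropping Chat-pos replicate 2. The cause of these changes was not tested.

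With the replicate number as a block, 8 complex I genes were called lower, Ndufc2 being lost. Libraries of the same number in both groups had correlations of 0.05, 0.03, -0.02 and -0.01, and not every library correlated best with its own number. These values showed no clear pairing by number. Whether libraries of the same number share animals cannot be told from them, as the labels do not name the animals and Chat-neg replicate 1 is shallow. Depth limits the low genes most: in Chat-neg replicate 1, 35 of the 45 tested genes had fewer than 50 counts.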
